A study of Mus musculus with 12 samples.

Results

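The iron handling genes are 10 genes chosen by name: the hepcidin genes Hamp1 and Hamp2, the hepcidin regulators Hfe2 and Tfr2, the transferrin receptor Tfrc, transferrin (Trf), ferroportin (Slc40a1), ceruloplasmin (Cp), and the ferritin subunits Fth1 and Ftl1. They were followed among 15373 genes measured by 21688 tested probes. A total of 9 were found by name in the scanner files, and Tfr2, which stands there as Trfr2, was found through its RefSeq accession. Each had 1 probe, and all 10 passed the filter on dim probes.

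The study hybridised liver RNA of Abcb4 -/- mice against liver RNA of Abcb4 +/+ mice on 2-colour Agilent arrays. Abcb4 is the phospholipid pump of the hepatocyte's canalicular membrane, and mice without it develop sclerosing cholangitis, an inflammation and scarring around the bile ducts. The first group was Abcb4 -/- mice fed cholic acid (CA) for 9 weeks to raise disease activity, and the second was Abcb4 -/- mice fed ursodeoxycholic acid (UDCA) for 9 weeks to lower it. Each was compared with Abcb4 +/+ wild type livers, so both groups shared the gene deletion and an added bile acid, and no untreated knockout was included. Each diet had 6 arrays from 5 knockout livers, since 1 liver per diet was hybridised again with its dyes exchanged. The sources used here do not say which arrays form that pair, what the wild type mice ate, or the sex, strain and age of the mice. The p-values below treat 6 arrays as 6 samples and are too small to that extent. On 3 arrays per diet the knockout RNA was labelled with Cy5 (red) and on the other 3 with Cy3 (green).

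Iron leaves cells through ferroportin, and hepcidin, a peptide hormone made by hepatocytes, binds ferroportin and causes its degradation. Hepatocytes set hepcidin by sensing circulating iron and bone morphogenetic proteins (BMPs) at a membrane complex that includes hemojuvelin (Hfe2), transferrin receptor 2 (Tfr2) and Hfe, and by inflammatory signals through STAT3. Transferrin carries iron in blood, the transferrin receptor takes it up, and ferritin stores it. In mice, Hamp1 is the form known to control iron, and Hamp2 is a neighbouring copy.

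The pair of hepcidin probes is shown because Hamp1 was saturated and Hamp2 was not, and because a probe for one copy may also bind the transcript of the other. Both lie on the minus strand of chromosome 7 in the mm7 build, Hamp1 at chr7:27882251-27882310 and Hamp2 at chr7:27862281-27862340. Aligned without gaps at an offset of 1 base, 42 of 59 bases were identical, and capitals mark the 17 that differ.
Hamp1 probe: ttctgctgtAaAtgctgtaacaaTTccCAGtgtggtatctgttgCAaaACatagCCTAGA
Hamp2 probe: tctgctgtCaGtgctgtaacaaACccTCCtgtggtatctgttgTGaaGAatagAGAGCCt

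Stretches of 111 bases before the hepcidin starts are shown because they hold sequence elements known for BMP and STAT signals in hepcidin promoters. The stretches were cut around those elements, at -159 to -49 from the start for Hamp1 and -156 to -46 for Hamp2. They are RefSeq sequences of build GRCm38.p6, minus strand, at chr7:30944078-30944188 for Hamp1 and chr7:30924227-30924337 for Hamp2. Capitals mark GGCGCC, the core of the BMP element, or the bases at its place in Hamp2, followed by TTCTTGGAA, the STAT motif.
Hamp1 upstream: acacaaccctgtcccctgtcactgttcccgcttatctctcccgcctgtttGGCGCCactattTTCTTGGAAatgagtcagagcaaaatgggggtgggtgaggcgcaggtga
Hamp2 upstream: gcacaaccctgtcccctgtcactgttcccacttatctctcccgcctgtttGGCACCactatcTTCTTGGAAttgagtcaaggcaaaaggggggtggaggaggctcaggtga
The stretches were identical at 100 of 111 bases. Counted from 1 at the first base of the BMP core, Hamp2 carried the substitution G4A. Among 32851 RefSeq promoters, read on both strands over the 250 bases before the start, TTCTTGGAA occurred in 0.37% and GGCGCC, which reads alike on both strands, in 9.59%. The motifs do not overlap each other. A match describes the letters only.

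Values below are on the log2 scale and set knockout against wild type, normalized within each array, and a probe was called where limma's moderated test gave an adjusted p (Benjamini-Hochberg over all 21688 probes) under 0.05. Median signals over gene probes ranged from 250.2 to 1296 in green and from 59.2 to 158.2 in red. The green scan was saturated at 549 to 2590 spots per array and the red scan at 0 to 417. A saturated spot stands at the scanner's ceiling, so its true level is at least the one recorded. Abcb4 was lower on 6 of 6 arrays of each diet at 1 of its probes (log2 -2.73 in CA-fed and -1.77 in UDCA-fed knockouts) and on 5 of 6 at the other (-0.73 and -1.28).

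Saturation divided the 10 genes. Hamp2, Hfe2 and Tfrc had no saturated spot, and Slc40a1 had a saturated channel on 3 arrays of each diet. The other 6 genes had a saturated channel on every CA array and on nearly every UDCA array. A channel was saturated on all 12 arrays for 1.76% of tested probes and on at least 1 array for 13.5%. For those 6, the ratio followed the dye: it lay higher wherever the knockout was in red and lower wherever it was in green. The dye term of the fit was 2.11 for Hamp1, 0.94 for Tfr2, 2.61 for Trf, 1.23 for Cp, 2.44 for Fth1 and 2.64 for Ftl1 (log2, red over green). It was between 0.01 and 0.10 for Hamp2, Hfe2, Tfrc and Slc40a1.

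**Figure D1:**
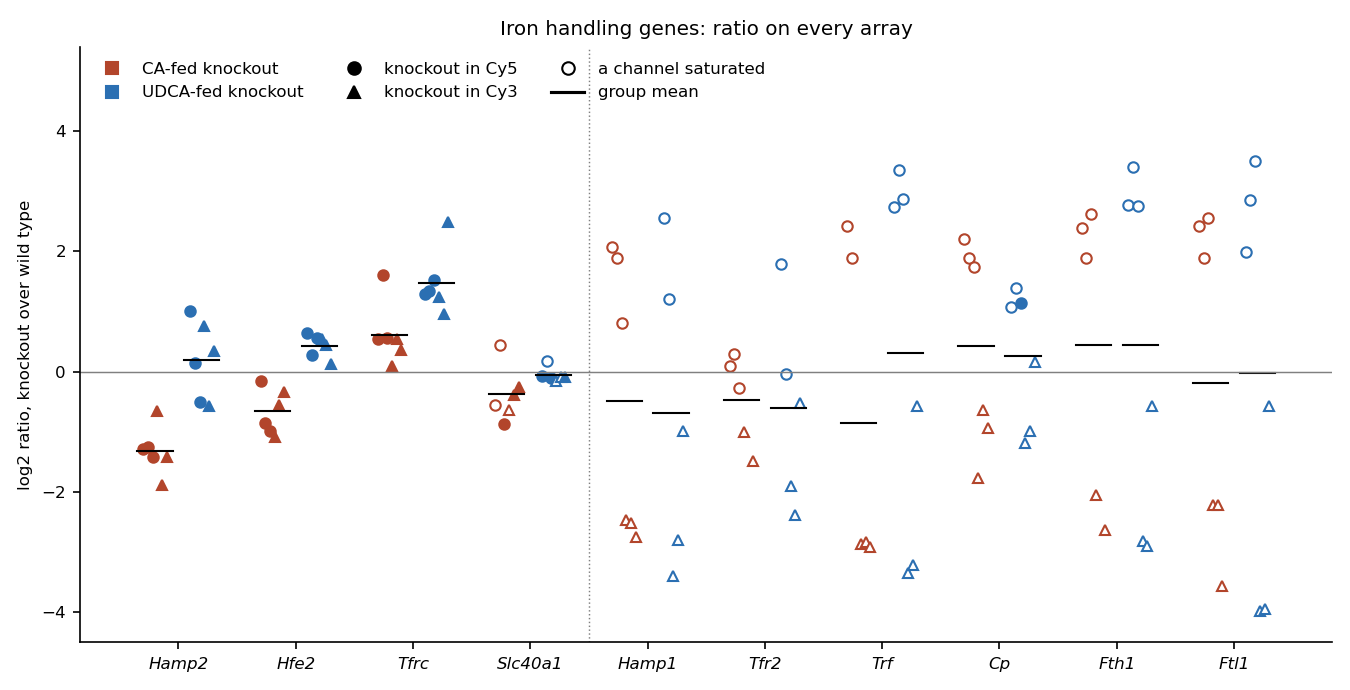
Log2 ratio of knockout over wild type on each array (y axis) for the 10 iron handling genes (x axis), CA-fed in red and UDCA-fed in blue, circles with the knockout in Cy5, triangles with it in Cy3, white symbols where a channel was saturated, and black bars at group means. Right of the dotted line, circles and triangles separate by dye, while the 4 genes on the left separate by diet or not at all.

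In CA-fed knockouts 4 of the 10 genes were called, with Tfrc higher and Hamp2, Hfe2 and Slc40a1 lower. Over all probes 59.6% were called in that comparison (34.2% higher, 25.4% lower), and over genes 60.3%, so 4 of 10 was below the background. In UDCA-fed knockouts Tfrc and Hfe2 were called, both higher, against 23.4% of all probes (15.1% higher, 8.39% lower) and 26% of genes. The difference between the diets was called for Hamp2, Hfe2 and Tfrc, all lower in CA-fed than in UDCA-fed knockouts, against 26.9% of all probes (16.4% higher, 10.5% lower) and 27.6% of genes. These counts come from the 4 genes with readable ratios. With saturated values left out, only those 4 could be tested. Of them 4, 2 and 3 were called for CA, UDCA and the diet difference, against 61.9%, 25.4% and 30% of probes. With median centring of each array in place of the loess curve, the median over all probes stood at 0.23 in the CA comparison and 0.29 in the UDCA comparison, against 0.05 and 0.03. Higher calls were then 80.4% of CA calls and 94.4% of UDCA calls, against 57.4% and 64.2% with loess. The corresponding shares for the diet difference were 84.5% and 60.9%.

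Hamp2 fell in CA-fed knockouts and had no called change in UDCA-fed knockouts. Its ratio in CA-fed knockouts ran from -1.89 through a median of -1.35 to -0.66, below 0 on all 6 arrays. In UDCA-fed knockouts it ran from -0.58 through a median of 0.25 to 1.02, above 0 on 4 of 6 arrays. The groups did not overlap, which held for 9.83% of all probes. The normalized log2 level was 11.14 ± 0.56 in CA-fed knockouts, against 12.46 ± 0.44 in the wild type livers on the same arrays (SD, n = 6 each). It was 12.41 ± 0.44 in UDCA-fed knockouts, against 12.21 ± 0.51 in their wild type livers. The fitted ratio was -1.32 ± 0.20 in CA-fed knockouts (SE, adjusted p = 3.58e-05), a 2.49-fold lower level. In UDCA-fed knockouts it was 0.20 ± 0.20, with an interval from -0.21 to 0.62 (adjusted p = 0.512). The diet difference was -1.52 ± 0.28 (adjusted p = 0.00118). Within the slides that held both diets, it was -2.47 on slide 3 (1 CA and 2 UDCA arrays) and -1.31 on slide 4 (1 CA and 3 UDCA arrays). On slide 3 the CA knockout was in Cy3 and the UDCA knockouts were in Cy5, so diet and dye cannot be told apart there. With median centring the ratio in CA-fed knockouts was -0.99 and lost its call (adjusted p = 0.0988), as did the diet difference at -1.60 (adjusted p = 0.186). With the red channel alone they were -0.82 and -0.61, and both calls were lost (adjusted p = 0.0898 and 0.667).

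Hamp1, the hormone gene itself, could not be read from the scanner ratios. Its green channel was saturated on 11 arrays and its red channel on 2, and 1 UDCA array was left out for an outlier flag. The ratio averaged 1.59 on the CA arrays with the knockout in red and -2.57 on those with it in green. For UDCA the same means were 1.89 and -2.39. The fit with a dye term gave -0.49 ± 0.26 in CA-fed knockouts (adjusted p = 0.117) and -0.26 ± 0.29 in UDCA-fed knockouts (adjusted p = 0.569). Both intervals include 0, and a saturated channel compresses a ratio. With slide as a fixed block the UDCA value was -0.71 and was called (adjusted p = 0.0457).

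The authors also deposited a table of processed ratios, made by steps that the sources used here do not give, and these are called series values below. In that table the dye term of Tfr2, Cp and Fth1 was at most 0.14 in size, while Hamp1 kept 0.67, Trf 0.40 and Ftl1 0.40. The series value of Hamp1 ran from -1.50 through a median of -1.03 to 0.89 in CA-fed knockouts, and 5 of 6 arrays were below 0. In UDCA-fed knockouts it was -2.00, -1.20, -0.44, -0.10 and 0.45 over 5 arrays, 4 of them below 0. limma on the series values gave -0.69 ± 0.20 for CA (adjusted p = 0.00805) and -0.52 ± 0.23 for UDCA (adjusted p = 0.106). The red channel alone, which was rarely saturated, gave -0.76 for CA (limma adjusted p = 0.111) and -0.29 for UDCA (adjusted p = 0.783). For CA it rests on 3 knockout and 3 wild type arrays, and for UDCA on 2 knockout and 3 wild type arrays. The comparison in red alone was added after the saturation was seen. All 3 measurements lay below 0 for Hamp1 in both diets, and 1 of the 6 passed the test. They are readings of the same arrays. Over 24 alternatives the CA value ran from -0.76 to 0.14 and changed sign in 1. The UDCA value ran from -0.71 to -0.004 over 24 alternatives.

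Hfe2 encodes hemojuvelin, the BMP co-receptor whose loss causes juvenile haemochromatosis in humans. It fell in CA-fed and rose in UDCA-fed knockouts, and it was not saturated on any array. The ratio ran from -1.08 through a median of -0.70 to -0.15 in CA-fed knockouts and from 0.13 through a median of 0.50 to 0.64 in UDCA-fed knockouts. All 6 CA arrays were thus below 0 and all 6 UDCA arrays above it, with no overlap. The level was 9.42 ± 0.29 in CA-fed knockouts, against 10.08 ± 0.56 in their wild type livers. It was 10.09 ± 0.14 in UDCA-fed knockouts, against 9.66 ± 0.09 in theirs (SD, n = 6 each). The wild type levels were thus 10.08 on CA arrays and 9.66 on UDCA arrays, a difference that was not tested. The fit gave -0.66 ± 0.13 for CA (adjusted p = 0.000367), 0.43 ± 0.13 for UDCA (adjusted p = 0.0199) and -1.09 ± 0.18 for the diet difference (adjusted p = 0.000549). The UDCA call was lost without UDCA array 1, 3, 4 or 5, at values of 0.39 to 0.42. With median centring all 3 calls were lost, at -0.36 for CA, 0.85 for UDCA and -1.20 for the diet difference (adjusted p = 0.487, 0.169 and 0.229). The red channel alone lost them too, at -0.73, 0.43 and -1.16 (adjusted p = 0.0681, 0.490 and 0.236). Within slides the diet difference was -1.02 on slide 3, where diet and dye coincided, and -0.85 on slide 4, each with 1 CA array.

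**Figure D2:**
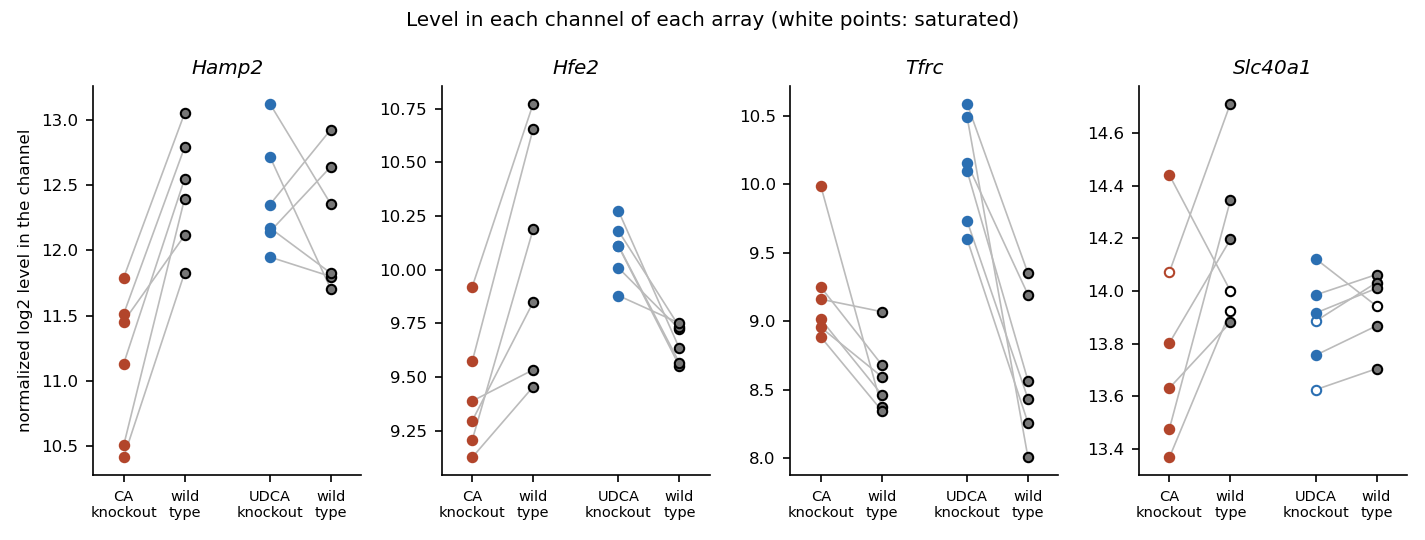
Normalized log2 level (y axis) of Hamp2, Hfe2, Tfrc and Slc40a1 in the knockout channel, left of the wild type channel of the same arrays, joined by a grey line, for the 6 CA and the 6 UDCA arrays, with white points where saturated. For Hamp2 and Hfe2 each CA line climbs to the wild type, and for Tfrc each line of both diets descends to it.

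Tfr2, the iron-sensing relative of the transferrin receptor, had a saturated green channel on every array and none in red. The ratio in CA-fed knockouts averaged 0.04 with the knockout in red and -1.25 with it in green, and the fit gave -0.66 ± 0.29 (adjusted p = 0.0618). In UDCA-fed knockouts it gave -0.42 ± 0.29 (adjusted p = 0.335). With slide as a fixed block both were called, at -0.58 for CA (adjusted p = 0.00850) and -1.10 for UDCA (adjusted p = 0.000546). The unsaturated red channel held a level of 12.36 ± 0.12 in CA-fed knockouts (n = 3), against 13.56 ± 0.38 in wild type livers (SD, n = 2). Red alone thus gave -1.19 for CA (limma adjusted p = 0.0141). For UDCA it gave -0.19, with an interval from -0.80 to 0.42. Series values ran from -1.40 to -0.50 in CA-fed and from -1.10 to -0.19 in UDCA-fed knockouts, below 0 on all 10 arrays with a value. limma on them gave -1.01 ± 0.15 for CA (adjusted p = 3.43e-05) and -0.61 ± 0.15 for UDCA (adjusted p = 0.00658). On series values the diet difference was -0.40, with an interval from -0.84 to 0.05. An array of each diet was left out of these values for an outlier flag. With flagged spots kept the CA value was -0.69 and was called (limma adjusted p = 0.0229). Tfr2 with CA was called in 8 of 24 alternatives.

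The other genes known to control hepcidin formed a list of 24, all measured. In CA-fed knockouts 12 rose and 5 fell, in UDCA-fed knockouts 4 rose and 2 fell, and 10 were higher and 3 lower in CA-fed than in UDCA-fed knockouts. Over all genes, 37.8% rose and 22.4% fell with CA, 17.2% rose and 8.77% fell with UDCA, and 18.8% were higher and 8.88% lower in the diet difference. The list's median was 0.52, -0.13 and 0.48, against 0.10, 0.04 and 0.08 over all genes. Inhbb, the activin B subunit, which can induce hepcidin in mouse liver, rose by 1.96 ± 0.21 with CA (adjusted p = 1.50e-06) and by 0.83 ± 0.21 with UDCA (adjusted p = 0.00958). Id1, a target gene of BMP signalling, rose by 1.30 ± 0.26 with CA and stood at 0.06 ± 0.26 with UDCA. Smad5, a mediator of BMP signals, rose by 1.0 ± 0.12 with CA. Other genes of the list lay below 0 on every CA array: Bmp2 at -1.27 to -0.13, Acvr2a at -1.37 to -0.24 and Il6ra at -1.26 to -0.001. Bmpr1a, a BMP receptor, and Smad4, the shared Smad partner, were higher with CA than with UDCA by 0.90 ± 0.16 and 0.78 ± 0.14.

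Hfe, the haemochromatosis gene that joins this complex, was lower with CA than with UDCA by a difference of -0.85 ± 0.17 (adjusted p = 0.00233). Its ratio ran from -1.09 to 0.01 in CA-fed and from 0.06 to 0.59 in UDCA-fed knockouts. The lack of overlap was a condition for naming Hfe here, and it held for 9.83% of all probes. Smad7, an inhibitor of the pathway, fell by 0.70 with UDCA (SE 0.21, limma adjusted p = 0.0218), a call lost in 7 of 25 alternatives. Its fall on 6 of 6 arrays was likewise a condition for naming it. Gdf15, a stress-induced cytokine of the same superfamily, rose by 1.0 ± 0.16 with UDCA and by 0.72 ± 0.16 with CA. Id1 was higher with CA than with UDCA by 1.24 (adjusted p = 0.0239), a call lost in 12 of 26 alternatives. The diet differences of Hfe, Bmpr1a and Smad4 lost their calls with median centring, at -0.97, 0.85 and 0.61 (adjusted p = 0.453, 0.399 and 0.669). They also lost them with red alone, at -0.69, 0.36 and 0.42 (adjusted p = 0.413, 0.804 and 0.649).

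Markers were read beside these values. Counts of these marker lists and of those below stand beside the shares over all genes. With CA 37.8% rose and 22.4% fell, and with UDCA 17.2% rose and 8.77% fell. In the diet difference 18.8% were higher and 8.88% lower. Of 9 measured hepatocyte markers, 7 were saturated on at least 6 arrays and 2 fell in each diet, and their array medians ran from -1.96 to 1.89 with CA and from -2.54 to 1.36 with UDCA. Summed levels here and below are log2 values over the genes of a list that had a value on all 12 arrays. Over 7 hepatocyte genes the sum was 16.8 to 19.0 in CA-fed knockouts, against 17.0 to 19.5 in wild type livers. In UDCA-fed knockouts it was 16.6 to 18.9, against 16.9 to 19.7 in theirs. Of 8 cholangiocyte markers 8 rose with CA and 6 with UDCA, and 6 were higher with CA than with UDCA. The summed level of 7 was 14.1 to 14.7 in CA-fed knockouts, against 11.0 to 12.2 in wild type livers, and 12.3 to 12.7 in UDCA-fed knockouts, against 10.9 to 11.8. Acute phase genes are raised by inflammation in hepatocytes. Of 13, 2 rose and 6 fell with CA, 5 rose with UDCA, and 6 were lower with CA than with UDCA. Their array medians ran from -1.41 to 0.28 with CA and from -0.10 to 1.42 with UDCA. Of these genes 4 (Hp, Fga, Fgb and Fgg) were saturated on at least 6 arrays, and the UDCA medians were 1.04 to 1.42 with the knockout in red and -0.10 to 0.86 with it in green. Of 6 sinusoidal endothelial markers, 2 rose and 2 fell with CA, and their array medians ran from -0.23 to 0.50 with CA and from -0.28 to 0.35 with UDCA. The part of these cell types and of inflammation in the values of the hepcidin genes and their regulators was not tested. In whole liver, fewer cells of a type and less RNA per cell cannot be told apart.

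**Figure D3:**
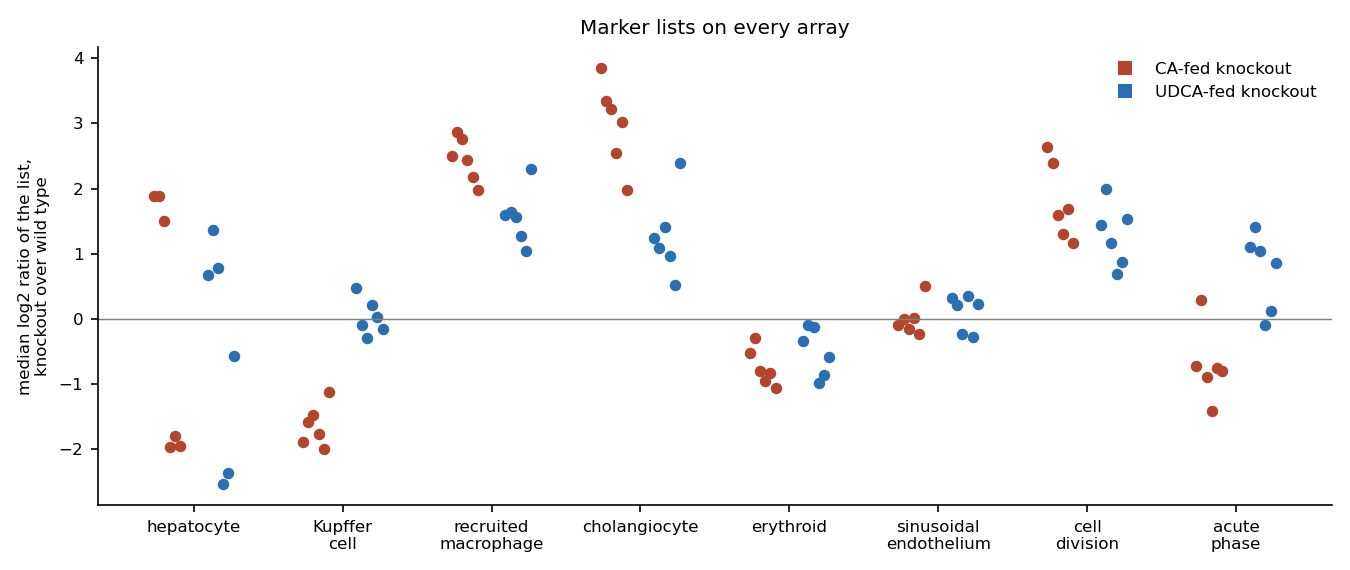
Median log2 ratio of knockout over wild type (y axis) over each of 8 marker lists (x axis), 1 point per array, CA-fed in red and UDCA-fed in blue. Kupffer cell medians lie between -2.00 and -1.13 on CA arrays and between -0.30 and 0.47 on UDCA arrays, and the hepatocyte list, mostly saturated, splits by dye.

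Tfrc, the receptor that takes up transferrin-bound iron, rose in both diets and rose more with UDCA. Its ratio ran from 0.09 through a median of 0.54 to 1.61 in CA-fed and from 0.96 through a median of 1.32 to 2.49 in UDCA-fed knockouts. It was above 0 on all 12 arrays, and the groups overlapped through CA array 2 at 1.61. The next highest CA array stood at 0.57. The level was 9.21 ± 0.40 in CA-fed knockouts, against 8.59 ± 0.27 in their wild type livers, and 10.11 ± 0.39 in UDCA-fed knockouts, against 8.63 ± 0.53 (SD, n = 6 each). The fit gave 0.62 ± 0.19 for CA (adjusted p = 0.0102), a 1.54-fold level, and 1.48 ± 0.19 for UDCA (adjusted p = 3.68e-05), a 2.78-fold level. The diet difference was -0.86 ± 0.27 (adjusted p = 0.0270). Tfrc was dim: well above background in both channels on 9 of 12 arrays, against 12 for every other iron handling gene. Its wild type red signal was 73.2 and 64.6 on UDCA arrays 4 and 5, with array medians of 60.7 and 59.5. The probe was spotted 10 times per array, and the SD over those spots was 0.052 to 0.202, less than the SD of 0.52 and 0.53 between arrays. Without CA array 2 the CA value was 0.42 (adjusted p = 0.0531). Without CA array 1 or 4 the diet difference was -0.82 or -0.76 and lost its call (adjusted p = 0.0534 and 0.0611). It lost it too with median centring, at -1.14 (adjusted p = 0.0770), and with red alone, at -0.63 (adjusted p = 0.557). Red alone also lost the CA call, at 0.55 (adjusted p = 0.165). The scanner software's processed signals gave 2.32 for UDCA and -1.57 for the diet difference, both called. Red alone gave 1.18 for UDCA. Within slides the difference was -0.78 on slide 3, where diet and dye coincided, and -0.88 on slide 4, each with 1 CA array.

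Dividing cells and erythroid precursors carry much Tfrc. All 10 cell division markers rose with CA and 9 of 10 with UDCA, and 3 were higher with CA than with UDCA. The summed level of 8 was 12.9 to 13.8 in CA-fed knockouts, against 10.3 to 11.8 in wild type livers, and 12.3 to 13.1 in UDCA-fed knockouts, against 10.9 to 11.9. Of 5 measured erythroid markers, 2 fell with CA and 3 with UDCA. The globin genes Hba-a1 and Hbb-b1 were saturated on 10 and 12 arrays, and their ratios followed the dye. The summed level of the other 3 was 10.5 to 11.3 in CA-fed knockouts, against 11.9 to 12.6 in wild type livers, and 11.1 to 11.5 in UDCA-fed knockouts, against 11.9 to 12.2. The part of dividing and erythroid cells in the Tfrc values was not tested.

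Transferrin, the iron carrier secreted by hepatocytes, was saturated on all 12 arrays. Its scanner ratio averaged 2.16 in CA-fed knockouts with the knockout in red and -2.87 with it in green, and the fitted values of -0.33 for CA and 0.31 for UDCA were not called (adjusted p = 0.345 and 0.454). Series values ran from -0.54 through a median of 0.70 to 1.20 in CA-fed knockouts (5 arrays) and from 0.08 through a median of 0.45 to 1.40 in UDCA-fed knockouts. limma on them gave 0.57 ± 0.17 for CA (adjusted p = 0.00855) and 0.64 ± 0.15 for UDCA (adjusted p = 0.00581). The CA value thus changed sign with the source, though the interval of the scanner fit, from -0.96 to 0.29, includes 0. The red channel was itself saturated on 5 arrays and gave -0.21 for CA and 0.65 for UDCA, neither called (adjusted p = 0.689 and 0.249).

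The partners of uptake, reduction and export were a list of 13, of which 12 were measured and Cybrd1 was too dim. In CA-fed knockouts 5 rose and 4 fell, and in UDCA-fed knockouts 4 rose and 2 fell, with 1 gene higher and 1 lower in the diet difference. The shares over all genes were again 37.8% and 22.4% for CA, 17.2% and 8.77% for UDCA, and 18.8% and 8.88% for the difference. Heph, the hephaestin ferroxidase that works beside ferroportin, rose by 1.98 ± 0.14 with CA (adjusted p = 1.97e-08) and by 0.92 ± 0.14 with UDCA (adjusted p = 0.000208). The diet difference of Heph was 1.07 ± 0.20 (adjusted p = 0.00142), a call lost in 3 of 25 alternatives. Slc39a14, the hepatocyte importer of iron that is not bound to transferrin, fell by 1.17 (SE 0.12) with CA and by 0.77 with UDCA. Timd2, a ferritin receptor in mice, fell by 1.02 (SE 0.13) with CA. Scara5, a receptor for L-ferritin, rose by 0.61 ± 0.17 with CA and 0.88 ± 0.17 with UDCA, and Steap4, a metalloreductase, by 0.46 ± 0.15 and 0.81 ± 0.13. With slide as a fixed block the UDCA value of Scara5 was 0.46 and lost its call (adjusted p = 0.0901), and red alone lost both of its calls, at 0.56 for CA and 1.04 for UDCA (adjusted p = 0.234 and 0.0856). The CA call of Steap4 was lost in 6 of 25 alternatives.

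**Figure D4:**
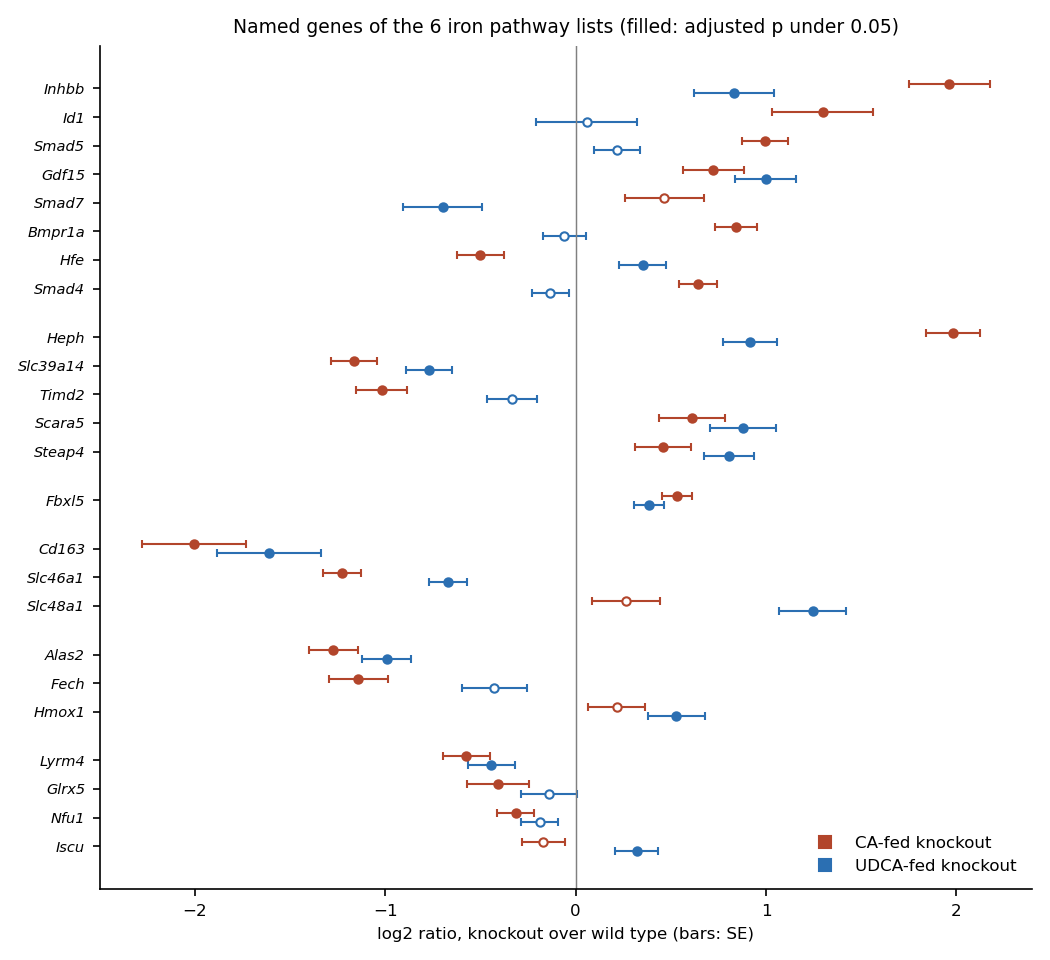
Fitted log2 ratio of knockout over wild type with its SE (x axis) for the named genes of 6 iron pathway lists (y axis), CA-fed in red above UDCA-fed in blue, filled where adjusted p was under 0.05. Cd163, Slc46a1 and Alas2 lie left of 0 in both diets, and Inhbb, Heph and Gdf15 lie right of it.

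Slc40a1, ferroportin, fell in CA-fed knockouts and had no called change with UDCA. The ratio ran from -0.87 through a median of -0.47 to 0.44 in CA-fed and from -0.15 through a median of -0.09 to 0.18 in UDCA-fed knockouts. In each diet 5 of 6 arrays were below 0, and the highest value of each group came from an array with a saturated wild type channel. The fit gave -0.38 ± 0.13 for CA (adjusted p = 0.0238), a 1.30-fold lower level, and -0.05 ± 0.13 for UDCA (adjusted p = 0.817). With saturated values left out the CA value was -0.55 (adjusted p = 0.0117), and series values gave -0.60 ± 0.12 (adjusted p = 0.000381), below 0 on 6 of 6 arrays. The CA call was lost in 8 of 25 alternatives. These were the fits without CA array 1, 3 or 4, at -0.33, -0.26 and -0.33, and with the scanner software's processed signals, at -0.13. The others were median centring at -0.32 (adjusted p = 0.665), subtraction without an offset at -0.33 (adjusted p = 0.0671), an averaged opposite-dye pair at -0.30 (adjusted p = 0.0816) and red alone at -0.53 (adjusted p = 0.261). The diet difference was -0.32 ± 0.19 (adjusted p = 0.222), and -0.49 on series values (adjusted p = 0.0353).

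Kupffer cells, the resident macrophages of the liver, express much ferroportin. Of 9 Kupffer cell markers 8 fell and 1 rose with CA, 3 rose and 2 fell with UDCA, and 6 were lower with CA than with UDCA. The summed level of 8 was 11.3 to 12.6 in CA-fed knockouts, against 13.6 to 14.9 in wild type livers, and 13.9 to 15.0 in UDCA-fed knockouts, against 13.9 to 14.6. Of 8 recruited macrophage markers 7 rose with CA and 8 with UDCA. The summed level of 7 was 14.4 to 15.6 in CA-fed knockouts, against 11.5 to 13.2 in wild type livers, and 14.2 to 15.0 in UDCA-fed knockouts, against 12.8 to 13.0. The part of these cells in the Slc40a1 values was not tested.

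Ceruloplasmin, the plasma ferroxidase that helps load iron onto transferrin, had a saturated channel on 11 arrays. Its scanner fit gave 0.42 ± 0.20 for CA (adjusted p = 0.0787) and 0.27 ± 0.20 for UDCA (adjusted p = 0.375). In the red channel, where 1 array was saturated, the level was 14.75 ± 0.43 in CA-fed knockouts, against 13.47 ± 0.67 in wild type livers (SD, n = 3 each). It was 13.83 ± 0.23 in UDCA-fed knockouts, against 12.85 ± 0.23 in theirs. Red alone thus gave 1.28 for CA (limma adjusted p = 0.0145) and 0.98 for UDCA (adjusted p = 0.126). Series values of Cp were above 0 on all 12 arrays, from 0.59 through a median of 1.05 to 1.30 with CA and from 0.25 through a median of 1.0 to 1.20 with UDCA. limma on them gave 1.0 ± 0.13 for CA (adjusted p = 4.79e-06) and 0.87 ± 0.13 for UDCA (adjusted p = 8.44e-05). The diet difference was 0.13 on series values, with an interval from -0.26 to 0.51.

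Fth1 and Ftl1 encode the heavy and light ferritin subunits, and both were saturated on all 12 arrays. The scanner ratio of Fth1 averaged 2.31 in CA-fed knockouts with the knockout in red and -2.34 with it in green, and the fit gave -0.04 ± 0.27 for CA (adjusted p = 0.907) and 0.44 ± 0.24 for UDCA (adjusted p = 0.216). Series values of Fth1 were above 0 on all 11 arrays with a value, from 0.64 through a median of 0.82 to 1.30 with CA and from 0.82 through a median of 1.10 to 1.40 with UDCA. limma on them gave 0.87 ± 0.11 for CA (adjusted p = 5.84e-06) and 1.10 ± 0.10 for UDCA (adjusted p = 9.86e-07). The red channel was saturated on 5 arrays and gave 0.24 and 0.40, neither called (adjusted p = 0.662 and 0.583). The Fth1 value with CA was thus near 0 in the scanner fit, with an interval from -0.61 to 0.53, and above 0 in the series values.

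Ftl1 was not called from any of the 3 sources. The scanner fit gave -0.19 ± 0.35 for CA and -0.03 ± 0.35 for UDCA (adjusted p = 0.661 and 0.967), and limma on the series values gave 0.28 ± 0.15 and 0.31 ± 0.15 (adjusted p = 0.106 and 0.152). Its series values still split by dye, at 0.58 with the CA-fed knockout in red and -0.01 with it in green. RefSeq lists pseudogenes of Ftl1, so its probe may also bind their transcripts.

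**Figure D5:**
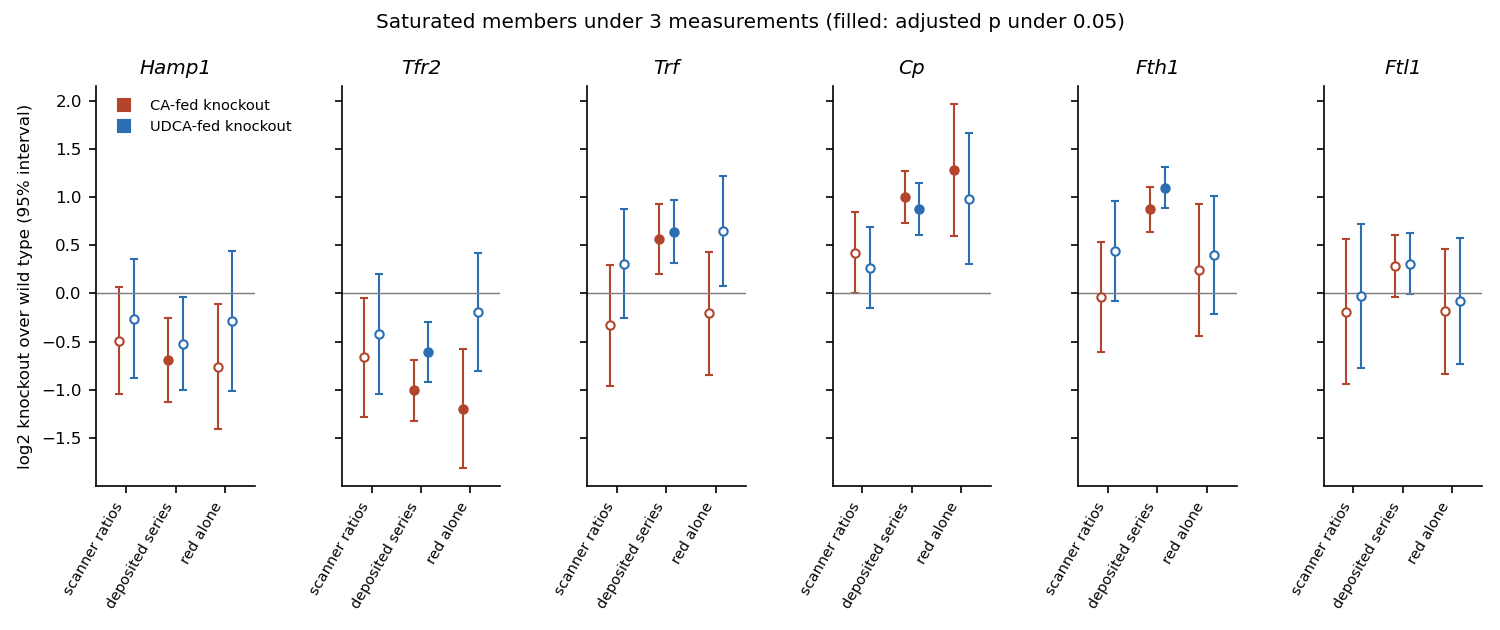
Log2 knockout over wild type with its 95% interval (y axis) for the 6 saturated genes, from scanner ratios, deposited series values and the red channel alone (x axis), CA-fed in red left of UDCA-fed in blue, filled where adjusted p was under 0.05. Cp lies above 0 and Tfr2 and Hamp1 below 0 in all 3 sources, while Trf and Fth1 with CA lie on both sides of 0.

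On these 12 arrays the scanner ratios of the 6 saturated genes resembled one another more than they resembled the rest, with pairwise Pearson r of 0.768 to 0.998 over the arrays that both had. The 3 genes most like Hamp1 were Dbi, Apoc3 and Azgp1 (r = 0.998, 0.996 and 0.995 over 11 arrays), and all were saturated on all 12 arrays. The gene most like Hamp2 was Il18bp (r = 0.926 over 12 arrays), followed by 2 probes with no gene symbol here. Those most like Tfrc were Tmprss2, Atp2b2 and Elapor1 (r = 0.923, 0.922 and 0.915), and those most like Slc40a1 were Noct, Pink1 and Dpys (r = 0.886, 0.884 and 0.874). The points share diets, slides and dyes, so these values describe likeness on these arrays alone.

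The remaining lists covered what happens to iron inside the cell, and their counts stand beside the same shares over all genes: 37.8% rose and 22.4% fell with CA, and 17.2% rose and 8.77% fell with UDCA. Of 8 genes of iron sensing and ferritin turnover, 1 rose and 2 fell with CA and 1 rose with UDCA. Fbxl5, part of the ubiquitin ligase that senses iron and removes Irp2, rose by 0.53 ± 0.08 with CA (adjusted p = 3.84e-05) and by 0.39 ± 0.08 with UDCA (adjusted p = 0.00225). Of 7 measured genes that scavenge or move heme, 2 fell with CA, and 2 rose and 2 fell with UDCA. Cd163, the macrophage receptor for haemoglobin bound to haptoglobin, fell by 2.00 (SE 0.27) with CA and by 1.61 (SE 0.27) with UDCA, and it is also one of the Kupffer cell markers. Slc46a1, a heme and folate transporter, fell by 1.23 (SE 0.10) and by 0.67 (SE 0.10), with a diet difference of -0.56 ± 0.14 (adjusted p = 0.00932). Slc48a1, which moves heme out of lysosomes, rose by 1.24 ± 0.18 with UDCA (adjusted p = 0.000105) and stood at 0.27 ± 0.18 with CA.

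In heme synthesis and breakdown 5 of 13 genes fell with CA, and 2 rose and 2 fell with UDCA. Alas2, the erythroid form of the first enzyme and itself an erythroid marker, fell by 1.27 (SE 0.13) with CA and by 0.99 (SE 0.13) with UDCA. Fech, the ferrochelatase that inserts iron into heme, fell by 1.14 (SE 0.16) with CA, with a saturated channel on 4 arrays. Hmox1, the heme oxygenase that releases iron from heme, rose by 0.53 ± 0.15 with UDCA, a call lost in 6 of 25 alternatives. In iron-sulphur cluster assembly 5 of 12 genes fell and 1 rose with CA, and 1 rose and 1 fell with UDCA. Lyrm4, a partner of the cysteine desulphurase, fell by 0.57 (SE 0.12) with CA and by 0.44 (SE 0.12) with UDCA, the second call lost in 6 of 25 alternatives. Glrx5 fell by 0.41 with CA, but it was saturated on 7 arrays and lost its call in 13 of 25 alternatives. Nfu1, a cluster carrier, fell by 0.32 with CA, and stood at 0.0497 with median centring. Iscu, the scaffold protein, rose by 0.32 with UDCA, a call lost in 15 of 25 alternatives. The list medians with CA were -0.00 for iron sensing, -0.06 for heme movement, -0.30 for heme synthesis and -0.24 for iron-sulphur assembly, against 0.10 over all genes. With UDCA they were -0.12, 0.55, -0.12 and -0.04, against 0.04. In these lists 2 of 8, 3 of 7, 2 of 13 and 3 of 12 genes were saturated on at least 6 arrays. The array medians of heme movement followed the dye. With UDCA they were 0.62 to 0.94 with the knockout in red and -0.57 to -0.32 with it in green. With CA they were -0.23 to 0.16 and -1.13 to -0.99.

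Some further calls named from the lists were lost with other processing. With median centring the lost CA calls were Slc39a14 at -0.82, Timd2 at -0.74, Fbxl5 at 0.87, Slc46a1 at -0.89, Alas2 at -0.93 and Lyrm4 at -0.22. The lost UDCA calls were Slc39a14 at -0.33, Fbxl5 at 0.83, Slc46a1 at -0.22 and Alas2 at -0.54. The diet differences of Slc46a1 at -0.67 and Heph at 1.05 also lost their calls. With red alone the lost CA calls were Inhbb at 0.95, Id1 at 0.71, Smad5 at 0.50, Gdf15 at 0.60, Slc39a14 at -1.13, Fbxl5 at 0.51 and Nfu1 at -0.70. The lost UDCA calls were Inhbb at 0.99, Gdf15 at 0.60, Heph at 0.74, Slc39a14 at -0.65, Steap4 at 0.81, Fbxl5 at 0.32 and Slc46a1 at -0.72. Slc46a1 also lost the diet difference at -0.33.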

How the data were processed

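Liver RNA was measured on 12 2-colour Agilent whole mouse genome arrays. Spot intensity values were deposited by the authors as scanned with Feature Extraction 9.5.3, and the probe coordinates are of build mm7, both per the file headers. The same files hold log10 ratios of red over green, made by that software, per the file headers; they served to check the direction of the authors' deposited series table, whose log2 values are called series values. In that table the CA columns run as wild type over knockout and were turned. Its rows were matched by row number, at a correlation of 0.775 to 0.971 in size per array. Its normalization was not found in the labels or headers.

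Mean intensities were background-corrected (normexp, offset 50) and loess-normalized with control spots at weight 0 in limma 3.58.1 (R 4.3.3). Outlier flags were left out, which made 0.922% of values missing, and saturated spots were kept. Of 41174 gene probes, the 21693 well above background on at least 5 of 6 arrays in the knockout or wild type channel of a diet were kept, and 21688 could be tested. lmFit and eBayes fitted CA, UDCA and a dye term, with their difference as a contrast. A gene stands for its brightest tested probe. The fit was tested on simulated data. Slide and scan coincided, and 2 of 5 slides held both diets.

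Members and lists were chosen with earlier results of these data known. Named pathway genes are up to 3 called genes per list and comparison with the largest change and the same direction on every array, or no overlap for the difference; values of other listed genes are given beside them. Hfe2 and Hamp1 keep the files' older names. Alternatives were other background and normalization choices, filters, saturated spots, dye and slide terms, replicate blocks, leaving out each array, and the red channel alone, which was chosen after seeing the data. The p-values measure the spread between arrays.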

Additional observations from a re-analysis of the deposited data

Results flagged for a closer look

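Tfrc on CA array 2 stood at 1.6126 (log2), farther from the other CA arrays than their spread allows by Dixon's test at the 95% level. Tfrc on UDCA array 6 stood at 2.4864 and Slc40a1 on UDCA array 2 at 0.1795, both likewise apart from their groups. These were 3 of 20 groups checked, and chance alone sets apart about 1 group in 20. The Slc40a1 value came from an array with a saturated wild type channel.

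Hamp2, Hfe2 and Tfrc had effects that differed between the diets in the fitted difference of CA and UDCA, at -1.5202, -1.0921 and -0.8559.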

How the results depend on the processing

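With median centring in place of loess, called probes numbered 6141 for CA, 1976 for UDCA and 815 for the diet difference, against 12919, 5085 and 5843, and called iron handling genes 1, 1 and 0, against 4, 2 and 3. By limma's unadjusted p under 0.05, 2, 2 and 3 of the 10 passed there. With series values 9 genes were called for CA and 6 for UDCA, where 65.9% and 26.1% of all probes were called. The CA ratio of Trf was there 0.57 and of Fth1 0.87, against scanner fits of -0.33 and -0.04 with intervals that include 0. A filter for both channels on all arrays left 12016 probes, of which 6947 were called for CA and 3217 for the diet difference, and 1 of 9 genes for UDCA. Tfrc was the gene that this filter removed. With slide as a fixed block 4 genes were called for UDCA (Hamp1, Hfe2, Tfr2 and Tfrc). Red alone, chosen after seeing the data and with fewer samples per test, called 3533, 723 and 45 probes (26.7% of the last higher in CA-fed than in UDCA-fed knockouts) and 2, 1 and 0 genes, while 6, 3 and 3 passed unadjusted. It turned the diet differences of Inhbb to -0.038 and Smad7 to -0.022, and median centring turned Nfu1 with CA to 0.0497. The causes were not tested. Leaving out saturated values left no fit for 6 genes. Leaving out 1 array at a time gave 11755 to 13247 probes for CA, 3953 to 5557 for UDCA and 4390 to 6811 for the difference. It gave 3 to 7 genes for CA (7 without UDCA array 6), 1 to 3 for UDCA (1 without UDCA array 1, 3, 4 or 5) and 2 to 4 for the difference. The calls of Hamp2 and Hfe2 with CA and between diets were lost with median centring (CA -0.99 and -0.36, diets -1.60 and -1.20) and red alone (CA -0.82 and -0.73, diets -0.61 and -1.16) and with no other alternative run, nor did Tfrc with UDCA lose its call in any that tested it. Averaging the most alike opposite-dye pair of each diet took the call from Slc40a1 with CA (limma adjusted p = 0.0816) and from the diet difference of Tfrc (limma adjusted p = 0.0553). The r of those pairs was only 0.109 (CA arrays 3 and 4) and 0.093 (UDCA arrays 3 and 5), which does not identify the liver hybridised again. Of 797 alternatives to 32 called pathway results, 718 kept direction and call, 78 lost the call and 1 turned. Processed signals gave called values over 1.5 times larger for Inhbb (3.15 and 1.66 for CA and UDCA), Cd163 (-4.21 and -3.50) and, with UDCA, Heph (1.96) and Scara5 (1.84).

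Arrays share numbers across diets in the labels, but same-numbered arrays did not deviate together (correlations of -0.567 to 0.134), and no array correlated best with its own number. With the replicate block 4725 probes and 3 iron handling genes were called for the difference, with Hamp2 at -1.52, Hfe2 at -1.09 and Tfrc at -0.86 (limma adjusted p = 0.000542, 0.00242 and 0.0346). Saturation limits what the ratios of the 6 bright genes can show.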
